A study of Mus musculus with 4 samples.

Results

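Il17rb, Cd163l1, Maf, Il23r, Il18r1 and Il1rl1 are genes of gamma delta and other interleukin 17 (IL17) type or innate-like T cells. They were chosen by name, with earlier results of these data known. Probe sets annotated to these symbols were looked up, with the brightest per gene used, and 5 of the 6 genes had one among 19938 named genes. Each of the 5 had exactly 1 probe set. Il1rl1, the IL33 receptor, had no probe set named for it and is not analysed here. The name of the group covers more than receptors for cytokines, because Cd163l1 is a scavenger receptor and Maf is a transcription factor.

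The arrays came from C57BL/6 mouse cells that all began as lymphoid-primed multipotent progenitors (LMPPs), bone marrow cells without lineage markers that carry Sca1, Kit and high Flt3. The cells called Tcf1 cells here (2 arrays, labelled as biological replicates) came from LMPPs given a retrovirus with Tcf1, the T lineage factor encoded by Tcf7, and the marker VEX, and were grown on the bone marrow stromal line OP9. Control cells (1 array) came from LMPPs given the VEX vector alone and were grown on OP9 that presents the Notch ligand DL4. Both were transduced over 48 hours with IL3, IL6, SCF and Flt3 ligand, sorted for VEX, grown with IL7 at 1 ng/ml and Flt3 ligand at 5 ng/ml, and sorted on day 10. That gate took live CD45.2+ cells with Thy1 and CD25 and without Mac1 and Gr1. The pooled LMPPs (1 array) stood for 48 hours in the same transduction medium and were measured without further culture. Tcf1 cells and control cells thus differed both in vector and in stroma, and each differed from LMPPs in time, stroma and gate, so these effects cannot be told apart. Tcf1 came from a retrovirus rather than from its own gene, and Tcf7 is not analysed here.

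Gamma delta T cells are T cells whose receptor is built from gamma and delta chains, and some of them are set in the thymus to make the cytokine IL17. Such cells sense cytokines of the surroundings through receptors that pair with shared chains: Il17rb, the receptor for IL25, works with Il17ra, Il23r with Il12rb1, and Il18r1 with Il18rap. Maf directs part of the IL17 programme in gamma delta T cells, and Cd163l1, also called Scart1, marks many of those cells in mice. Il17rb and Il1rl1 are also well known on type 2 innate lymphoid cells, and Il1rl1 on mast cells.

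Il17rb and Cd163l1 carried the clearest differences and moved together, so the windows around their start sites are shown. They are taken from RefSeq on build GRCm38.p6, from 250 bases before to 50 bases after the start, 5′ to 3′ on the gene's strand. The Il17rb window is chr14:30008847-30009146 on the minus strand, and the Cd163l1 window is chr7:140218017-140218316 on the plus strand. Capitals mark a match to 1 of 3 motifs that were searched on both strands.
Il17rb: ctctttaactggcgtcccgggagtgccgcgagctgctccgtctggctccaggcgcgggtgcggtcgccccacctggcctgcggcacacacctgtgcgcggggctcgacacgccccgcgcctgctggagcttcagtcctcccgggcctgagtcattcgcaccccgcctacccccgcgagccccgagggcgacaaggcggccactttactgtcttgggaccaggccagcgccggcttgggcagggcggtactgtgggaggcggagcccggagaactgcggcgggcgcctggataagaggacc
Cd163l1: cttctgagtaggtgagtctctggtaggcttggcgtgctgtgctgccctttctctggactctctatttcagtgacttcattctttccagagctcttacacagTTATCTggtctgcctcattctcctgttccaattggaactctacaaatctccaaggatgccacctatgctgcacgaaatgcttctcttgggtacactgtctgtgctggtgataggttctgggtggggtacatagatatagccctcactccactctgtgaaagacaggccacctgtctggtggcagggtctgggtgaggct
The Il17rb window is rich in G and C (72.0%, with 32 CpG pairs), and that of Cd163l1 is not (50.7%, with 2 CpG pairs), where the median of 32544 RefSeq windows was 53.0% with 7.0 CpG pairs. The motifs were CTTTGAT for TCF/LEF factors, AGATAA for GATA factors and TGCTGA for MAF factors, and none overlapped another in these windows. Neither window held the TCF/LEF letters, which 3.73% of all windows held. The Cd163l1 window held the GATA letters once, on the reverse strand 149 bases before the start, as 11.2% of all windows did. The Il17rb window held no match to any of the 3. The window of Il23r held 1 match to the MAF letters, found in 19.5% of windows.

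Values are log2 signals made with RMA, so a difference of 1 is 2-fold. Median signals of the 19938 genes lay between 7.47 and 7.59 on the 4 arrays. No detection calls were used, so the level of genes that blood cells are not known to use was read from 1027 olfactory receptor genes. Their 95th percentile was 7.16 and 6.73 in the 2 Tcf1 arrays, 6.73 in the control array and 6.82 in the LMPP array, and their median was 5.47, 5.06, 5.05 and 5.12 in the same order. Tcf1 replicate 1 therefore had the highest floor. Replicate 2 read higher than replicate 1 for 67.9% of all genes and for all 5 members, with a median gap over all genes of 0.083. The single control and LMPP arrays have no spread of their own, and the test, limma with Benjamini-Hochberg adjustment over all genes at 0.05, lets them vary as the Tcf1 pair did. The p-values therefore rest on the spread between the 2 Tcf1 arrays and on a spread borrowed across genes. Nothing in the labels says whether these 2 replicates came from separate mice, so that spread need not be one between mice.

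**Figure D1:**
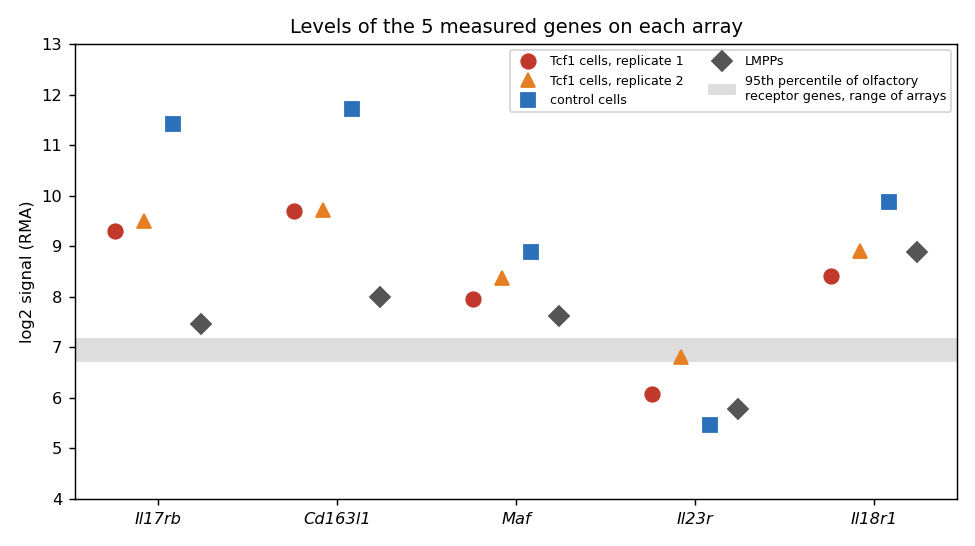
Log2 signal (vertical axis) of the 5 measured genes (horizontal axis) on each of the 4 arrays, 1 symbol per array, with the range over arrays of the 95th percentile of olfactory receptor genes in grey. Il17rb and Cd163l1 lie in the order control cells, Tcf1 cells, LMPPs, and Il23r lies within or below the grey band on all arrays.

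Il17rb, the chain that gives the IL25 receptor its specificity, read 9.30 and 9.50 in Tcf1 cells, 11.41 in control cells and 7.46 in LMPPs. The 2 Tcf1 arrays lay between the other 2 and close to each other. Il17rb was higher in Tcf1 cells than in LMPPs by 1.94 (SE 0.17), which is 3.83-fold (adjusted p = 0.00223, limma). It was lower in Tcf1 cells than in control cells by a difference of -2.01 (SE 0.17, adjusted p = 0.00168, limma), so control cells read 4.04-fold above Tcf1 cells. Control cells read 3.95 above LMPPs, 15.5-fold, with 1 array in each group and no test. On the log2 scale the Tcf1 arrays stood at 46.5% and 51.5% of the way from the LMPP to the control level. In bulk RNA, fewer cells that express a gene and less RNA per cell cannot be told apart.

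Cd163l1, a scavenger receptor cysteine-rich protein of gamma delta T cells, followed the same order with a tighter pair. It read 9.69 and 9.71 in Tcf1 cells, 11.72 in control cells and 7.99 in LMPPs. The 2 Tcf1 values were nearly equal, and 92.0% of all genes were further apart between these arrays. Cd163l1 was higher in Tcf1 cells than in LMPPs by 1.71 (SE 0.16, adjusted p = 0.00276, limma), or 3.26-fold. Against control cells the difference was -2.02 (SE 0.16, adjusted p = 0.00112, limma), so control cells read 4.06-fold higher. Control cells exceeded LMPPs by 3.73, or 13.3-fold, without a test. The Tcf1 arrays stood at 45.5% and 46.0% of the way from LMPPs to control cells.

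The 2 genes had each other as the nearest gene, although they lie on different chromosomes (14 and 7). The search covered the 19938 genes without those that had predicted, clone, pseudogene or olfactory names. Nearness was the Euclidean distance between profiles over the 4 arrays, each gene centred on its own mean, and it was 0.232 log2 units for this pair. It is a description of 4 arrays in 3 groups. The next nearest to Il17rb were Trdv2-2, a variable segment of the T cell receptor delta chain (0.258), and Lef1, a relative of Tcf1 in the same factor family (0.288). For Cd163l1 they were the same 2 genes, at 0.363 for Trdv2-2 and 0.334 for Lef1. Trdv2-2 read 6.72 and 7.17 in Tcf1 cells, 9.16 in the control array and 5.17 in the LMPP array, and Lef1 read 8.44, 8.92, 10.59 and 6.93 in that order. In both, the Tcf1 arrays fell between control cells and LMPPs, with a wider gap in the pair than in Cd163l1. The LMPP and Tcf1 replicate 1 values of Trdv2-2 were below the olfactory 95th percentile, so its distances rest in part on signals near the floor.

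The close relative of Cd163l1 had another order. 5830411N06Rik, also called Scart2, is separated from Cd163l1 in the gene table only by an olfactory receptor gene and likewise encodes a scavenger receptor of gamma delta T cells. It read 11.06 and 10.86 in Tcf1 cells, 9.71 in control cells and 6.96 in LMPPs. Both Tcf1 arrays were thus above the control array, where those of Cd163l1 were below it. 5830411N06Rik was higher in Tcf1 cells than in LMPPs by 3.99 (SE 0.17, adjusted p = 0.000222, limma) and higher than in control cells by 1.25 (SE 0.17, adjusted p = 0.0107, limma). The difference between the 2 genes was not tested. As relatives in sequence they could share probe signal.

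**Figure D2:**
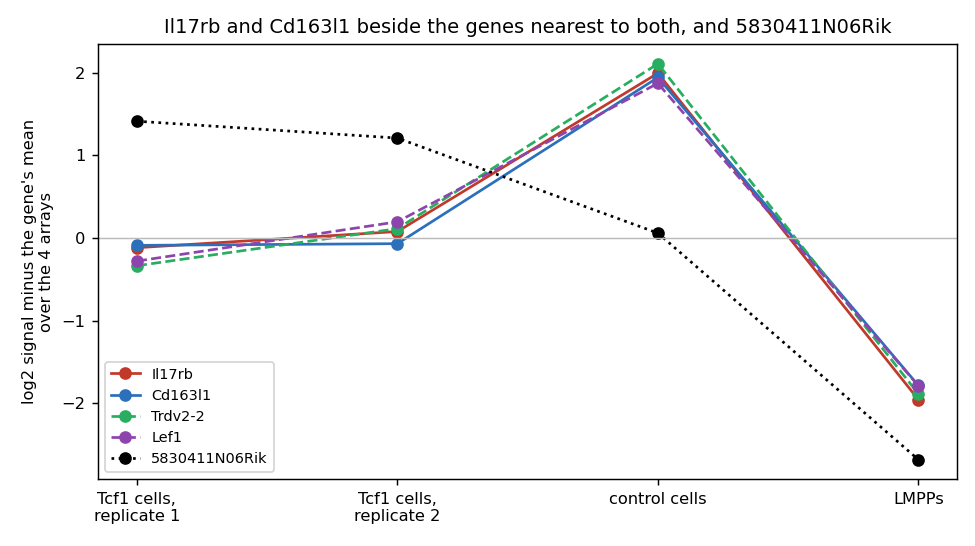
Log2 signal minus each gene's mean over the 4 arrays (vertical axis) on each array (horizontal axis), with points joined per gene only to guide the eye. Il17rb, Cd163l1, Trdv2-2 and Lef1 peak in control cells, while 5830411N06Rik is highest in the 2 Tcf1 arrays.

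Maf, a transcription factor of IL17 type gamma delta T cells that is also abundant in macrophages, varied less. It read 7.96 and 8.37 in Tcf1 cells, 8.89 in control cells and 7.62 in LMPPs. The order of the groups was that of Il17rb, but the gaps were closer to the spread of the pair. The difference from LMPPs was 0.54 (SE 0.21, 95% interval 0.043 to 1.04, adjusted p = 0.295, limma), and with each Tcf1 array alone it was 0.34 and 0.75. Against control cells it was -0.73 (SE 0.21, 95% interval -1.23 to -0.23, adjusted p = 0.139, limma). Neither passed over all genes, but the second passed after median centring (adjusted p = 0.0255, limma) and among genes brighter than the 25th percentile (adjusted p = 0.0393, limma). Control cells read 1.27 above LMPPs, 2.41-fold, untested.

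Other Maf family and partner genes were flatter than Maf. Of 9 measured genes of the list of Maf factors, Bach partners and Nfe2l2, Maf included, 0 passed in either comparison by limma. At an unadjusted p under 0.05 there was 1 against LMPPs and 2 against control cells. Among all 19938 genes, 2900 and 2809 were at that level in the same comparisons. Bach2, a repressor that pairs with small Maf proteins, read 8.59 and 9.04 in Tcf1 cells, 9.43 in control cells and 8.43 in LMPPs. The list had a median difference of -0.012 from LMPPs and -0.14 from control cells, where all genes had medians of 0.0047 and 0.017. With predicted, clone, pseudogene and olfactory names left out, the 3 genes nearest to Maf were Adamts6 (0.050), Atxn1 (0.0572) and H2-Oa (0.0638). Adamts6 is a secreted protease, and H2-Oa is a chain of a molecule that regulates MHC class II loading.

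Macrophage markers also differed between the groups, which bears on a gene that macrophages use. Of 14 measured macrophage markers, 4 were higher in Tcf1 cells than in LMPPs, 7 were higher than in control cells, and 0 were lower in either comparison. Their mean log2 signal was 8.18 and 8.45 in the Tcf1 arrays, 6.75 in the control array and 7.41 in the LMPP array. Itgam, which encodes a chain of Mac1, is among the 14, and the day 10 gate took cells without Mac1. It did not pass against LMPPs (-0.68) or control cells (0.53). Adgre1 read 11.10 and 11.43 in Tcf1 cells, 6.51 in control cells and 6.89 in LMPPs, and its control value was below the olfactory 95th percentile. Cd163 (5.72 to 5.96) stayed below that level on all 4 arrays, and C1qa (6.64 to 6.83) on all but Tcf1 replicate 2. Lyz2 (4.09), Mrc1 (2.27) and C1qb (2.24) were higher in Tcf1 cells than in control cells, and also higher than in LMPPs. Csf1r (1.82), Cd68 and Cd14 were higher than in control cells but did not pass against LMPPs. The part of macrophages in the level of Maf was not tested in any group.

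Il18r1, the ligand-binding chain of the IL18 receptor, set Tcf1 cells apart from control cells but not from LMPPs. It read 8.41 and 8.91 in Tcf1 cells, 9.88 in control cells and 8.88 in LMPPs. The LMPP value lay between the 2 Tcf1 values, and both were below the control array. Il18r1 was lower in Tcf1 cells than in control cells, with a difference of -1.22 (SE 0.23, 95% interval -1.76 to -0.67, adjusted p = 0.0341, limma), and control cells read 2.32-fold higher. From LMPPs the difference was -0.21 (SE 0.23, 95% interval -0.76 to 0.33, adjusted p = 0.835, limma), which turned to 0.033 with replicate 2 alone. Control cells read 1.00 above LMPPs, 2.00-fold, without a test. The pair itself was 0.49 apart, and 4.81% of all genes were further apart.

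Its coreceptor Il18rap ran differently. Il18rap, the accessory chain without which the IL18 receptor does not signal, read 7.87 and 8.22 in Tcf1 cells, 8.87 in control cells and 9.95 in LMPPs. It was lower in Tcf1 cells than in LMPPs, with a difference of -1.90 (SE 0.20, adjusted p = 0.00425, limma), and its difference from control cells was -0.82 (SE 0.20, adjusted p = 0.0814, limma). Thus in control cells Il18r1 was above its LMPP level and Il18rap below it, by -1.08. The ligand Il18 read 6.22 and 6.93 in Tcf1 cells, 5.51 in control cells and 5.53 in LMPPs. Only Tcf1 replicate 2 exceeded the olfactory 95th percentile of its array. Il18 did not pass in either comparison by limma (adjusted p = 0.131 against LMPPs and 0.113 against control cells).

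In the gene table of GRCm38.p6, Il18r1 lies on chromosome 1 in a row of receptor genes of the IL1 family: Il1r2, Il1r1, Il1rl2, Il1rl1, Il18r1 and Il18rap. Of these genes 4 were measured. Il1rl2 and Il18rap shared 1 order, highest in LMPPs and lowest in Tcf1 cells, while Il18r1 and Il1r2 each had another. Il1rl2, the receptor of IL36, read 5.67 and 5.72 in Tcf1 cells, 6.57 in control cells and 7.41 in LMPPs. It was lower than in LMPPs by a difference of -1.72 (adjusted p = 0.00273, limma) and lower than in control cells by -0.88 (adjusted p = 0.0305, limma), though the Tcf1 and control arrays read below the olfactory 95th percentile. Il1r2, a decoy receptor for IL1, read 8.67 and 9.30 in Tcf1 cells, 7.18 in control cells and 8.60 in LMPPs, and was higher in Tcf1 cells than in control cells by 1.81 (SE 0.27, adjusted p = 0.0132, limma). Il1r1 was not analysed here. Over 8 measured genes of the IL1 receptor family, 0 were higher and 2 lower in Tcf1 cells than in LMPPs, and 1 was higher and 2 lower than in control cells. The family's medians were -0.12 and -0.23.

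NK cells also carry the IL18 receptor. Of 12 NK markers, Gzmb and Il2rb were higher and Eomes lower in Tcf1 cells than in LMPPs, while Klrd1 was higher and Gzma and Nkg7 lower than in control cells. The mean of the 12 was 7.39 and 7.74 in Tcf1 cells, 7.67 in control cells and 7.10 in LMPPs. The defining NK receptors Ncr1 (5.62, 5.87, 5.37 and 5.39) and Klrb1c (4.67, 4.82, 4.80 and 4.71), given as Tcf1 replicates 1 and 2, control cells and LMPPs, were below the olfactory 95th percentile on all 4 arrays.

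Il23r, the specific chain of the IL23 receptor, was at the low end on all arrays. It read 6.07 and 6.80 in Tcf1 cells, 5.46 in control cells and 5.78 in LMPPs. Both Tcf1 values were above both others, but only replicate 2 exceeded the olfactory 95th percentile of its array. The pair was 0.74 apart, and 1.21% of all genes were further apart. The difference from control cells was 0.97 (SE 0.29, 95% interval 0.28 to 1.67, adjusted p = 0.159, limma), and from LMPPs it was 0.66 (SE 0.29, 95% interval -0.040 to 1.35, adjusted p = 0.381, limma). With each Tcf1 array alone it was 0.60 and 1.34 from control cells and 0.29 and 1.02 from LMPPs, so the size rested on the replicate. The difference from control cells passed with a spread that follows signal (adjusted p = 0.0316, limma with trend) and after median centring (adjusted p = 0.0409, limma).

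Il12rb1, the chain that Il23r shares with the IL12 receptor, read 8.09 and 8.31 in Tcf1 cells, 9.56 in control cells and 8.77 in LMPPs. It was lower in Tcf1 cells than in control cells by a difference of -1.36 (SE 0.17, adjusted p = 0.00791, limma), and did not pass against LMPPs (-0.57, adjusted p = 0.181, limma). The 2 chains of the IL23 receptor therefore stood in opposite order between Tcf1 and control arrays, although the Il23r difference did not pass. The ligand subunits Il23a (5.77 to 6.16 over the arrays) and Il12b (5.99 to 6.14) stayed below the olfactory 95th percentile on each array.

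**Figure D3:**
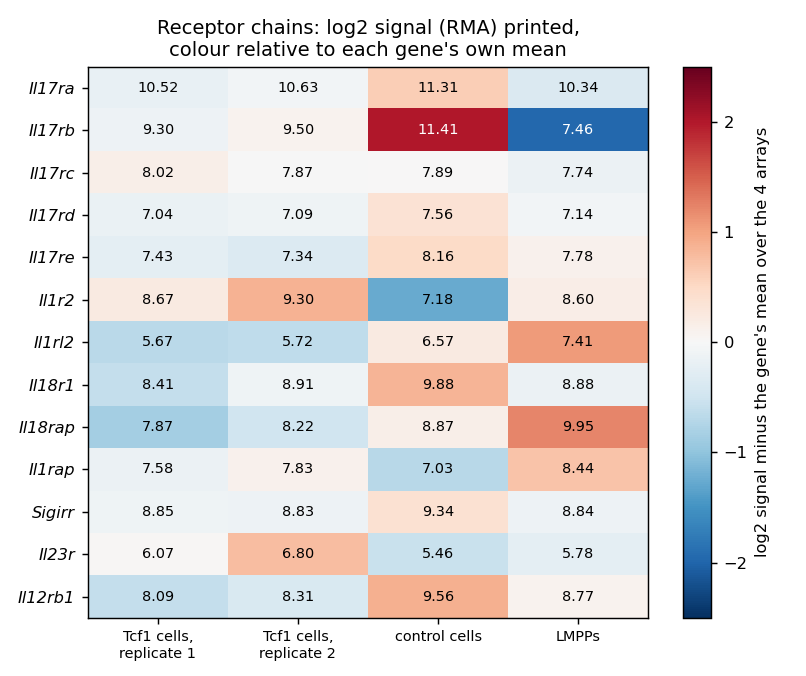
Log2 signal of receptor chains (rows) on the 4 arrays (columns), with the value printed and the colour showing its distance from that gene's mean over the arrays. Il17rb and Il12rb1 are highest in control cells, Il18rap and Il1rl2 in LMPPs, and Il23r and Il1r2 in Tcf1 replicate 2.

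The partner of Il17rb changed less than Il17rb itself. Il17ra, the chain shared by receptors of the IL17 family, differed by 0.24 from LMPPs (adjusted p = 0.653, limma) and by -0.73 from control cells (adjusted p = 0.0643, limma). Of the 5 IL17 receptor genes, Il17rb was the only one past the test in either comparison. Il17re, the receptor chain for IL17C, came near it against control cells, with 7.43 and 7.34 in Tcf1 cells, 8.16 in control cells and 7.78 in LMPPs (-0.78, adjusted p = 0.0507, limma). Il25 and Il17b, the ligands of Il17rb, differed by no more than 0.21 in either comparison.

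Over the 5 measured members, 2 of 5 (Il17rb and Cd163l1) were higher and 0 lower in Tcf1 cells than in LMPPs, where 1.75% of all genes were higher and 1.31% lower. Against control cells 3 of 5 (Il17rb, Cd163l1 and Il18r1) were lower and 0 higher, where 2.49% of all genes were lower and 1.9% higher. In control cells against LMPPs 4 of 5 read at least 2-fold higher, with Il18r1 on that limit, and 0 read 2-fold lower, where 3.17% and 2.36% of genes did. The median of the members was 0.66 against LMPPs and -1.22 against control cells. The members were chosen with earlier results of these data known, so these counts beside the shares of all genes are not independent evidence. The comparisons share arrays, so their values are not independent. The calls rest on 1 residual degree of freedom and on a spread borrowed across genes: over all 35399 probe sets, or without moderation, 0 of the 5 passed in either comparison (limma). At an unadjusted p under 0.05 there were 2 against LMPPs and 4 against control cells over all probe sets, where 9.37% and 10.5% of probe sets did, and 1 in each without moderation, where 6.5% and 5.82% of genes did. Against LMPPs the unadjusted limma p of Il17rb was 0.000676 over all probe sets and 0.0556 without moderation, and that of Cd163l1 was 0.000611 and 0.00656.

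**Figure D4:**
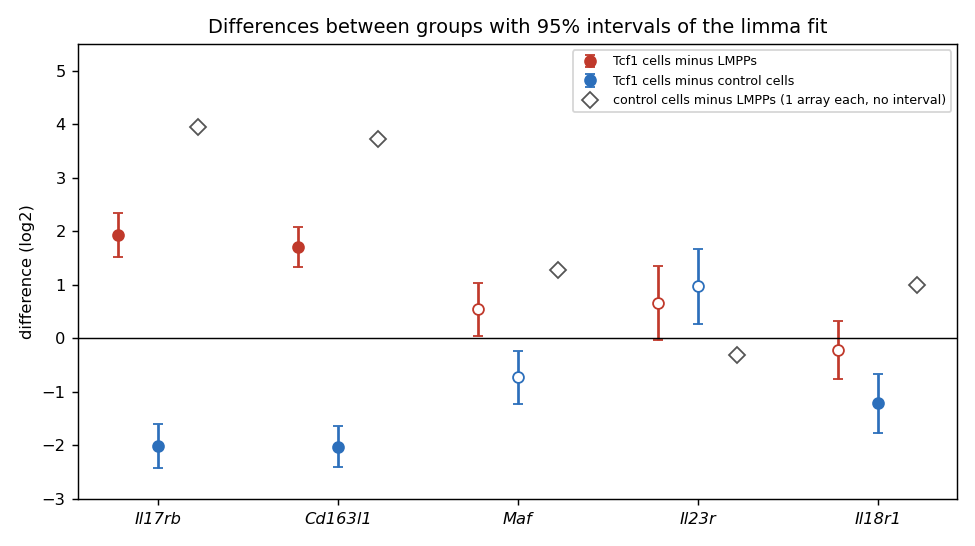
Differences in log2 signal (vertical axis) for each gene (horizontal axis), with 95% intervals from the limma fit for comparisons of Tcf1 cells and no interval for control cells against LMPPs. Filled circles passed at an adjusted p under 0.05: Il17rb and Cd163l1 in both comparisons and Il18r1 against control cells.

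Few of the genes that work with the receptors passed the test. Of 13 measured coreceptors and adaptors, Stat4, a transcription factor activated by IL12 and IL23, rose against LMPPs by 1.06 (SE 0.20, adjusted p = 0.0451, limma), Il18rap fell, and 11 did not pass. Against control cells Il12rb1 alone of the 13 passed, downward. At an unadjusted p under 0.05 there were 4 of 13 against LMPPs and 6 against control cells. Among all 19938 genes, 2900 and 2809 were at that level in the same comparisons. Il1rap, the accessory chain of IL1 family receptors, differed by -0.74 from LMPPs and by 0.67 from control cells. In control cells against LMPPs, without a test, Stat4 and Irak2 read at least 2-fold higher and Il18rap and Il1rap at least 2-fold lower. Myd88 and Irak1, which carry signals of IL1 and IL18 receptors, and Traf3ip2, the adaptor of IL17 receptors, did not pass, with Traf3ip2 at 0.25 and -0.60. The medians were 0.14 and -0.18. Of the 8 ligand genes and their regulators 0 passed in either comparison by limma (2 and 1 at an unadjusted p under 0.05), and 0 had a change of 2-fold in control cells against LMPPs.

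The wider IL17 type programme was mixed. Of 17 measured genes, 5830411N06Rik and Il7r (2.95) rose and Etv5 (-1.81) and Cd44 (-0.87) fell against LMPPs, while 13 did not pass. Against control cells 5830411N06Rik and Cd44 (1.55) were higher, and Blk, a kinase of IL17 type gamma delta T cells, Zbtb16, the factor PLZF of innate-like T cells, Il12rb1 and Etv5 (-1.09) were lower. Blk read 7.30 and 7.63 in Tcf1 cells, 10.84 in control cells and 7.53 in LMPPs, so the Tcf1 arrays stood at the LMPP level (-3.38 against control cells, adjusted p = 0.000396, limma). Zbtb16 read 8.59 and 8.56 in Tcf1 cells, 9.94 in control cells and 7.90 in LMPPs (-1.36 against control cells, adjusted p = 0.0056, limma). Il17a (6.30 and 6.44 in Tcf1 cells, 6.45 in control cells, 6.38 in LMPPs) was below the olfactory 95th percentile on all 4 arrays. Il17f (7.24 and 6.9996 in Tcf1 cells, 7.05 in control cells, 7.08 in LMPPs) was above it on all 4 and differed by no more than 0.06 in either comparison. Sox13 differed by no more than 0.14 in either comparison. Trdc is among the genes not analysed here, so the arrays give a partial view of the cell type for which the genes are named. The medians of the 17 were 0.027 and -0.14.

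Receptor genes of the T cell itself gave the setting. Trgv1, a gamma chain segment that shares sequence with its family, read 13.16 and 13.09 in Tcf1 cells, 13.08 in control cells and 6.08 in LMPPs. The CD3 chains that carry any T cell receptor to the surface were far apart between Tcf1 cells and control cells. Cd3e read 7.45 and 7.42 in Tcf1 cells, 10.41 in control cells and 7.32 in LMPPs. Cd3d (-2.86), Cd3g (-6.44) and Cd247 (-1.50) were also lower in Tcf1 cells than in control cells. Against LMPPs, Cd3g (0.94, adjusted p = 0.037, limma) and Cd247 (1.66, adjusted p = 0.00891, limma) were higher in Tcf1 cells. Cd3e (0.11) and Cd3d (0.16) did not pass against LMPPs. Cd3g read 6.48 and 6.64 in Tcf1 cells and 5.62 in LMPPs, near the floor. Of 10 T lineage markers, 6 rose and 1 fell against LMPPs, and 6 were lower and 0 higher than in control cells. Their mean was 8.665 and 8.76 in Tcf1 cells, 10.52 in control cells and 7.08 in LMPPs, the order that Il17rb and Cd163l1 also had. Thy1 and Il2ra, which encodes CD25, were 2 of the risers, and the day 10 gate fixed their rise. Without them 4 of 8 rose and 1 fell against LMPPs, 6 were lower than in control cells, and the mean was 7.67 and 7.76 in Tcf1 cells, 9.83 in control cells and 6.97 in LMPPs. Whether the share of T lineage cells differed between the sorted groups was not tested.

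Il17rb is used by type 2 lymphoid cells too, and genes of that programme moved in part. Of 14 measured, Gata3 (2.54), Ccr4 (2.41) and Bcl11b (2.08) rose and Hpgds, a prostaglandin synthase, fell by 1.62 against LMPPs, and 10 did not pass. Gata3 and Bcl11b are also among the T lineage markers above, so their rise was counted in both lists. Against control cells Gata3 (-1.30) and Ccr4 (-1.25) were lower, 0 were higher and 12 did not pass. The effector cytokines Il4, Il5 and Il13 differed by no more than 0.30 in either comparison. Of 13 mast cell and basophil markers, Cpa3 (2.36) rose and Mcpt8 (-2.31) and Gata2 (-1.08) fell against LMPPs, and Mcpt8 was also lower than in control cells (-1.83). The mast cell receptor chains Fcer1a (4.70 to 4.87) and Ms4a2 (4.80 to 5.66) stayed below the olfactory 95th percentile on each array. Of 14 stromal markers 4 rose against LMPPs: Timp3 (3.75), Thbs1 (3.12), Bgn (2.25) and Fn1 (1.90). Against control cells 2 were higher, Bgn (1.52) and Fn1 (1.80), and 1 was lower, Pdgfrb (-1.63). The mean of the 14 was 7.855 and 8.09 in Tcf1 cells, 7.71 in control cells and 7.10 in LMPPs. The day 10 gate took CD45.2+ cells, and the part of stromal RNA in these signals was not tested. Among the rest of the list, Col1a1, Col1a2, Col3a1, Dcn, Lum, Pdgfra and Vcam1 did not pass. These genes differed by no more than 0.22 in either comparison. Sparc (0.58 against LMPPs and 0.70 against control cells) and Cxcl12 (0.47 and 0.07) read higher in Tcf1 cells but did not pass either.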

How the data were processed

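Total RNA (250 ng) of 4 samples was amplified (Ambion WT Expression kit) and hybridised to Affymetrix whole-transcript arrays, 1 per sample, per the labels' protocols. The deposited values are log2 signals per probe set, made by the authors with RMA and Partek 6.5 per the submitters' processing notes. The base was taken from RMA and the range of values, and a build for the probe sets is not given in these sources.

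Of 35399 probe sets, 21789 had 1 gene symbol, 1621 several and 11989 none, and symbols matched a RefSeq gene table through Entrez numbers for 21698. Per gene the probe set with the highest mean was used (19938 genes, no filter on dim genes). The 3 groups were compared by limma (version 3.58.1, R 4.3.3) using moderated variances (prior of 5.78 degrees of freedom, SD 0.141, 6.78 in all). Control cells against LMPPs had no test, and a 2-fold limit was used. On simulated data (20 runs, 200 changed genes), 46.4% of 2-fold and 99.2% of 4-fold changes were recovered for Tcf1 cells against LMPPs and 46.8% and 99.3% against control cells, with 9.65% and 9.21% of calls false. The simulated spread came from the fitted prior, with no shift between replicates. These rates therefore describe data that follow the model, and the real pair had such a shift.

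The members, gene lists and motifs were chosen with earlier results of these data known. Named genes were the members, their partners, ligands and families, list genes past the test (up to 4 per list and direction), and the 3 genes nearest to a member with a range of at least 1. Genes with predicted, clone, pseudogene or olfactory names were left out of the search for nearest genes. Trdv2-2 came from that rule. Levels of non-members that did not pass were named after their values were seen. Alternatives were renewed quantile normalization, median centring, a filter at the 25th percentile, all probe sets, means of probe sets, other moderation and each Tcf1 array alone. A motif and a gene of the planned lists are not reported here.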

Additional observations from a re-analysis of the deposited data

How the results depend on the processing

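Over all 35399 probe sets, where limma called 0 of any kind (3317 and 3702 at an unadjusted p under 0.05 against LMPPs and control cells), and with an unmoderated test, 0 members were higher than LMPPs and 0 lower than control cells. The differences themselves were then 1.94 (Il17rb) and 1.71 (Cd163l1) against LMPPs and -2.01, -2.02 and -1.22 (Il18r1) against control cells. Median centring passed Il23r (0.93, 1 member higher) and Maf (-0.77) against control cells, a trend in the spread passed Il23r (0.97, 1 higher), and the filter at the 25th percentile passed Maf (-0.73) and removed Il23r. With 1 Tcf1 array at a time, with no test, Il18r1 against LMPPs ran from -0.46 to 0.033 and changed sign. The other differences of the 5 members kept their sign under these alternatives. Calls of the other settings for Il17rb, Cd163l1 and Il18r1 were unchanged. Calls over all genes moved to 1456 against LMPPs and 1646 against control cells after median centring, from 610 and 874. No paired analysis was possible because control cells and LMPPs have 1 array each. Scanner files were not used, so signal over background limits what Il23r can show.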
